A study of Homo sapiens with 13 samples.

Results

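The 36 genes described here build the DNA synthesis machinery at the replication fork. They were chosen by symbol, from a list of origin licensing, polymerase, clamp loader, nucleotide supply and fork protection genes, with earlier results of these data known. All 36 were present among the 22613 gene entries of each library. RNA was sequenced from LNCaP-abl cells, an androgen-independent line derived from the LNCaP prostate cancer line, grown in medium with charcoal-stripped serum (which is low in steroid hormones) at passages 53 to 60 and harvested 72 h after siRNA transfection. The 12 knockdown groups received pools of siRNAs against FOXA1, FOXM1 and CTCF (transcription factors), EZH2 and EED (subunits of the Polycomb complex PRC2), SMARCA4 (a chromatin remodelling ATPase), KDM1A (a histone demethylase), RAD21 (a cohesin subunit), BRCA1 and BRCA2 (DNA repair genes), or MALAT1 and PCAT1 (long noncoding RNAs), and the 13th group received the control siRNA named siControl2. Each group had 1 library and all came from this line. With no replicates, nothing below carries a replicate error or a p-value, and every difference describes these libraries.

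Before S phase, the origin recognition complex, CDC6 and CDT1 load the replicative helicase onto DNA, and geminin (GMNN) and the DTL ubiquitin ligase keep CDT1 from acting again once replication has begun. At the fork, DNA polymerase alpha with primase lays primers, polymerases epsilon and delta extend them while held by the PCNA clamp that RFC complexes load, FEN1 and LIG1 join the lagging strand pieces, and RPA covers the exposed single strands. Ribonucleotide reductase, thymidylate synthase and thymidine kinase supply the nucleotides. Many of these genes are known as E2F targets whose transcription peaks around the G1/S boundary.

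Promoters are shown first because nearly all of these genes were lower together in the knockdown libraries. The sequences are RefSeq's on GRCh38.p14, from 250 bases before to 50 after a gene's start, and 32 of the 36 genes matched the table, 8 of them with several starts. The windows were searched on both strands for an E2F type motif, spelled TTTCCCGC, TTTCGCGC, TTTGCCGC or TTTGGCGC, for the CCAAT box, spelled CCAAT, and for the CHR type motif TTTGAA, an element known from late cell cycle promoters. An E2F type match was found for 15 of the 32 genes (46.9%), against 3.99% of the 27305 genes in the table. That table was not limited to genes expressed here, and the motif shares were not adjusted for base composition. A CCAAT box was found for 18 of the 32 (56.2%), against 39.7% of all genes, and TTTGAA for 2 of them, DUT and RRM1 (6.25%), against 18.2%. Among the 17 E2F type matches in the windows of these genes, 2 overlapped each other, in a TIPIN window, and 2 of the 34 CCAAT matches overlapped each other in that of POLE. A match is a description of letters, not of binding. Only these exact spellings were searched, so a window without a match may still hold a related sequence. The 5 windows below were picked after the values were seen: CDC6 and PCNA hold an E2F type match and lay far below the control, GMNN holds one and lay near the control in most libraries, and RRM2 and FEN1 hold none and had the lowest medians of their roles. Capitals mark E2F type and CCAAT matches on either strand.
CDC6 (chr17:40287629-40287928, + strand): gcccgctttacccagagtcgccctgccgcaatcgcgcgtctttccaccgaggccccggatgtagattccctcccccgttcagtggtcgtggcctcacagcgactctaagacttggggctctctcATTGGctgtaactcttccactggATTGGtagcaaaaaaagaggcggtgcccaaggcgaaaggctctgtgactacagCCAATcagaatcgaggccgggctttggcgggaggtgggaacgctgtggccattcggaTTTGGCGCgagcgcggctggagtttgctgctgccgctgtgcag
PCNA (chr20:5126573-5126872, - strand): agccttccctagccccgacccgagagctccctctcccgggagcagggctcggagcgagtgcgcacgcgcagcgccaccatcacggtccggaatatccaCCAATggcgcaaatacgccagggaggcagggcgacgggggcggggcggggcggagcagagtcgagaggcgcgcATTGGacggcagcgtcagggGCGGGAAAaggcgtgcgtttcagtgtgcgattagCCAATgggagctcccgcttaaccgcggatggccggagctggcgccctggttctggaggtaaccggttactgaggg
GMNN (chr6:24775163-24775462, + strand): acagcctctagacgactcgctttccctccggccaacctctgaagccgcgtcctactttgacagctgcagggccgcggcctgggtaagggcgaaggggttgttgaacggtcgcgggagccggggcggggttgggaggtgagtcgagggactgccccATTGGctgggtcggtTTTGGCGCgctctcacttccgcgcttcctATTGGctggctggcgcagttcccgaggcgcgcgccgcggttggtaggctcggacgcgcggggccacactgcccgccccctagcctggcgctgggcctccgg
RRM2 (chr2:10122489-10122788, + strand): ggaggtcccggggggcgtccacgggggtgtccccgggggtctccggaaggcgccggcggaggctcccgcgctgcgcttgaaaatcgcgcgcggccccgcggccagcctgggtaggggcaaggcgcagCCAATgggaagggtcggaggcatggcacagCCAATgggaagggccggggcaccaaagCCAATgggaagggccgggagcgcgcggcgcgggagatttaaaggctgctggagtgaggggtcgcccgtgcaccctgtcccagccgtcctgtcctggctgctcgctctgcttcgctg
FEN1 (chr11:61792661-61792960, + strand): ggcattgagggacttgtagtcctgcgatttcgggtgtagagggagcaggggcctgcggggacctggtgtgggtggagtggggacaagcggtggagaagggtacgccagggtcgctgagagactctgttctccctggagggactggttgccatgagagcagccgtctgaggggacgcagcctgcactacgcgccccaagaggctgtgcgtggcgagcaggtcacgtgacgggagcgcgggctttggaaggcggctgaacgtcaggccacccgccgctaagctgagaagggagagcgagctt
The CDC6, PCNA and GMNN windows each hold 1 E2F type match, and the RRM2 window holds 3 CCAAT boxes, while neither motif was found in the FEN1 window. PCNA and GMNN each have another start, not shown, whose window held no E2F type match. A gene with several starts was counted when any of its windows held a match. The values of genes with and without a match overlapped. The log2 difference from the control (knockdown minus control, log2(FPKM + 1)), taken as each gene's median over the 12 knockdowns, ran from -1.51 to -0.37 with a median of -1.14 in the 15 genes with an E2F type match. In the 17 genes whose windows held none it ran from -1.64 to -0.46 with a median of -1.16. This split sorts the genes by the searched spellings only, and whether E2F sites bear on the values was not tested.

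Levels are given as FPKM (sequenced fragments scaled to transcript length and library size), which the authors deposited on a log2 scale. Of 11 siRNA targets measured, 10 were below the control in their own library and 8 were lowest there of all 13 libraries. BRCA2 was at 1.23 FPKM in siBRCA2, against 3.25 in the control, but only the 9th lowest of the 13, and BRCA1 was at 1.83 in siBRCA1, against 11.1, the 3rd lowest. MALAT1 was at 21.7 FPKM in its own library, against 16.4 in the control, which goes against the label, so that library is called the library labelled siMALAT1. For PCAT1, which was not analysed here, the knockdown could not be checked. Of 10 luminal prostate markers, 8 had levels between 12.5 and 516 FPKM in every library, whereas KLK3 and KLK2, both androgen-induced, reached at most 0.524 and 1.70 FPKM. Of 4 listed basal markers, the keratin KRT14 stayed at or under 0.830 FPKM and ITGB4 lay between 1.40 and 4.13, while KRT5 and TP63 were not analysed here. The fibroblast, endothelial and leukocyte genes COL1A1, PECAM1 and PTPRC stayed at or under 3.14, and the macrophage-associated gene CD68 lay between 4.07 and 11.1. All 36 genes passed the filter of a mean of at least 0.5 FPKM, as did 15780 genes in all. The median log2 difference of all these genes from the control lay between 0.0057 and 0.054 in the 12 knockdowns. The deposited libraries share nearly one distribution of values, which by itself holds this median near 0, so a shift in total RNA could not be seen here.

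DNA synthesis genes were lower than the control in nearly every knockdown, to very different extents. Of the 432 values (36 genes in 12 knockdowns), 424 lay below the control and 8 above it. In 199 the level was at least 2-fold lower (a difference of -1 or less on the log2(FPKM + 1) scale) and in 0 at least 2-fold higher, against 2.04% lower over all genes and knockdowns. All 2-fold counts here use this scale, on which a level slightly more than 2-fold lower in FPKM can miss the cut. For values at least 2-fold higher the share of all genes was 2.59% in siFOXM1, 3.52% in siFOXA1, 0.894% in siEZH2, 1.27% in siCTCF, 0.494% in siSMARCA4 and 0.387% in the library labelled siMALAT1. It was 0.906% in siRAD21, 0.323% in siPCAT1, 0.754% in siKDM1A, 0.45% in siBRCA1, 0.767% in siBRCA2 and 0.817% in siEED, and none of the 36 genes was among them. The 12 differences of a gene share the single control library and are not independent. The control was the highest of the 13 libraries for 30 of the 36 genes, against 5.31% of all genes. The exceptions were GMNN, PRIM1, POLD3, RFC4, RPA2 and RPA3. In bulk RNA, fewer cells in S phase and less of these transcripts per cell cannot be told apart.

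**Figure D1:**
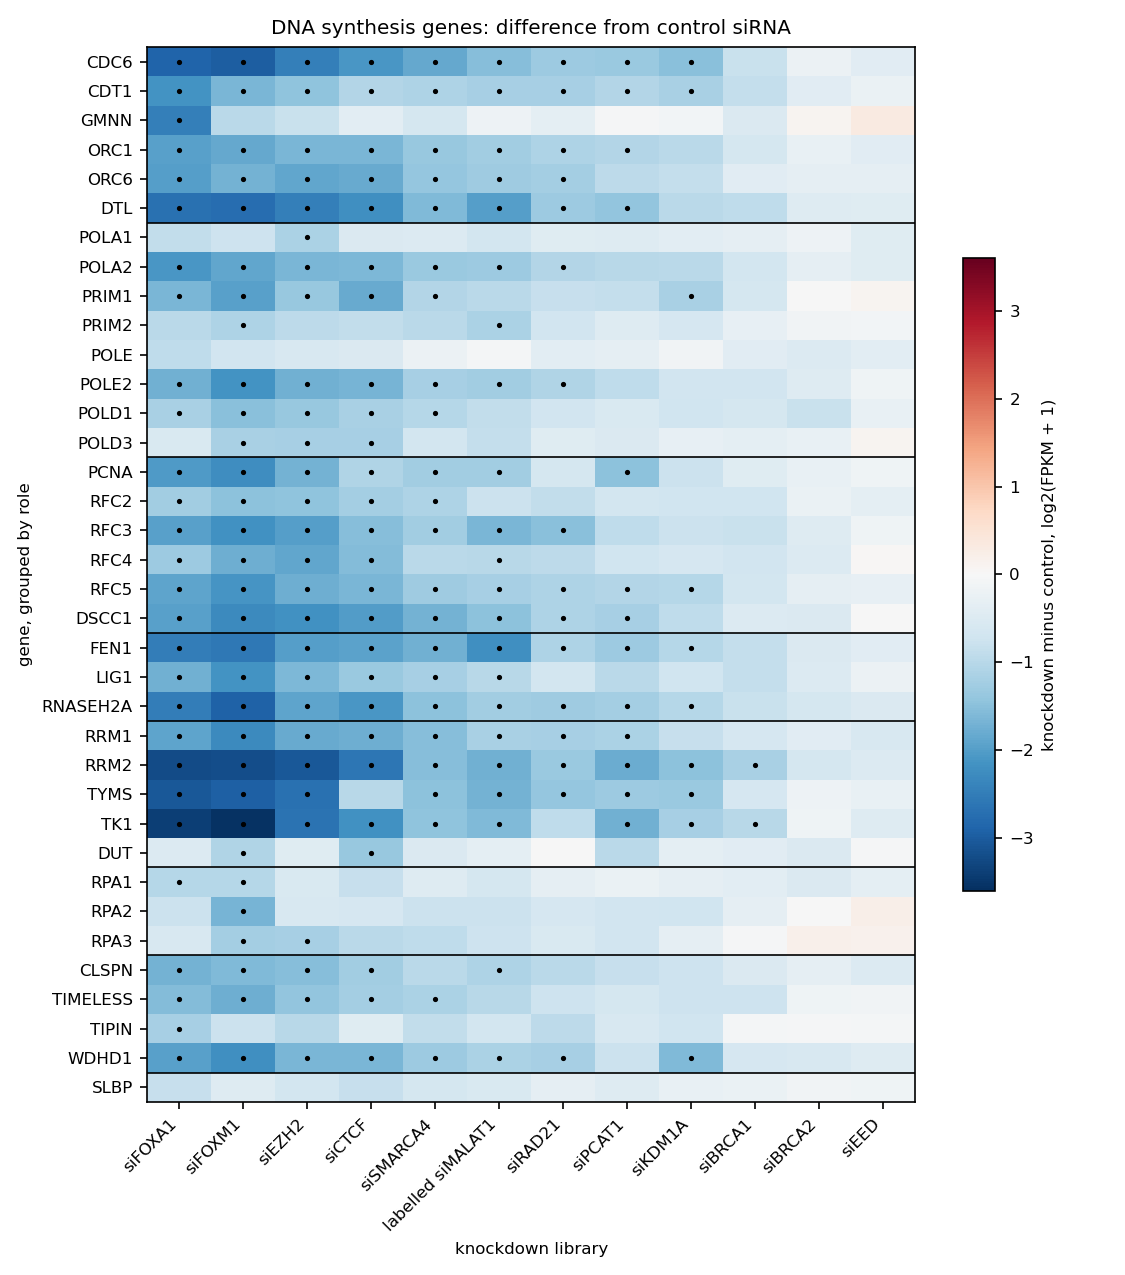
Log2 difference from the control, knockdown minus control on the log2(FPKM + 1) scale, for the 36 genes (rows, grouped by role with lines between roles) in the 12 knockdown libraries (columns, ordered by the median of the 36 genes). Dots mark differences of -1 or less, of which there are 199, and the columns at right, siBRCA2 and siEED, hold none.

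The number of DNA synthesis genes at least 2-fold lower than the control followed a wide gradient. In siFOXM1 it was 31 of 36, where 3.6% of all genes were that much lower, and in siFOXA1 28 of 36, where 4.22% were. siEZH2 also had 28, against 3.09% of all genes, and siCTCF had 26, against 2.85%. In siSMARCA4 the count was 23 (all genes 1.97%), in the library labelled siMALAT1 22 (1.57%), in siRAD21 16 (1.88%) and in siPCAT1 13 (1.33%). siKDM1A had 10, against 1.55% of all genes, and siBRCA1 had 2, RRM2 and TK1, against 0.944%. In siBRCA1, DTL (3.92 FPKM, against 8.21 in the control) and LIG1 (4.33, against 8.68) were also more than 2-fold lower in FPKM but missed the cut. In siBRCA2 and siEED, where 0.76% and 0.741% of all genes were at least 2-fold lower, the count was 0. The median log2 difference of the 36 genes was lowest in siFOXA1 (-1.81) and siFOXM1 (-1.80), followed by siEZH2 (-1.63) and siCTCF (-1.34). It was -1.17 in siSMARCA4, -1.15 in the library labelled siMALAT1, -0.94 in siRAD21 and -0.92 in siPCAT1. The smallest medians were -0.75 in siKDM1A, -0.62 in siBRCA1, -0.31 in siBRCA2 and -0.27 in siEED. These values depend on the single control library. When each knockdown was set against the other 11 by their median instead, the median over the 36 genes lay between -0.88 and -0.14 in the first 6 of these libraries and between 0.14 and 0.87 in the other 6, and the count at least 2-fold lower was 14 in siFOXM1, 10 in siFOXA1, 4 in siEZH2, 1 in siCTCF and 0 in the rest. Of all genes, 1.77%, 2.49%, 1.35% and 0.83% were that much lower in these 4 libraries, and between 0.203% and 0.646% in the rest. That reference is itself low, since 424 of the 432 values lay below the control, and by its construction some libraries fall above it and others below. It places the knockdowns against each other and cannot show how far the values depend on the control library. Set against it, 11 of the 36 genes were at least 2-fold higher in siEED, against 1.01% of all genes, 9 in siBRCA2, against 1.03%, and 0 in the other 10 libraries. The medians of siEED and siBRCA2 were still below the control.

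Nucleotide supply genes had 37 of their 60 values at least 2-fold lower, against 2.04% of the values of all genes. The same share stands beside the count of each role below. RRM2, the small subunit of ribonucleotide reductase, was at 3.57 FPKM in siFOXM1, 3.55 in siFOXA1, 4.06 in siEZH2, 5.91 in siCTCF, 13.4 in siSMARCA4, 11.6 in the library labelled siMALAT1, 15.7 in siRAD21, 11.2 in siPCAT1, 14.1 in siKDM1A, 17.7 in siBRCA1, 26.2 in siBRCA2 and 29.2 in siEED, against 41.1 in the control. Its level was thus below the control throughout, lowest in the FOXA1, FOXM1 and EZH2 knockdowns and closest to it in siEED and siBRCA2. On the log2(FPKM + 1) scale its median difference of -1.64 was the lowest of the 36 genes. It was also the single one of them at least 2-fold lower in 10 or more knockdowns on that scale, against 0.165% of all genes. Both rankings depend on the offset. In FPKM, DTL fell further, to a median of 2.24 over the knockdowns, against 8.21 in the control, where RRM2 had 12.5, against 41.1. Beyond the 8 knockdowns counted for it, DTL was more than 2-fold lower in FPKM in siKDM1A (3.74) and siBRCA1 (3.92). TK1, the thymidine salvage kinase, was at 4.39 FPKM in siFOXM1, 5.12 in siFOXA1, 9.08 in siEZH2, 13.004 in siCTCF, 22.6 in siSMARCA4, 20.2 in the library labelled siMALAT1, 33.1 in siRAD21, 18.1 in siPCAT1, 26.8 in siKDM1A, 30.9 in siBRCA1, 56.4 in siBRCA2 and 45.8 in siEED, against 63.0 in the control. The span of its log2 differences, from -3.57 in siFOXM1 to -0.16 in siBRCA2, was the widest of the 36. TYMS, which makes thymidylate, was at 2.55 FPKM in siFOXM1, 2.27 in siFOXA1, 3.16 in siEZH2, 12.6 in siCTCF, 8.64 in siSMARCA4, 7.24 in the library labelled siMALAT1, 9.24 in siRAD21, 9.82 in siPCAT1, 9.74 in siKDM1A, 16.6 in siBRCA1, 22.6 in siBRCA2 and 21.4 in siEED, against 26.0 in the control. In siCTCF its log2 difference was -0.99, although RRM2 and TK1 were among the lowest genes there with -2.61 and -2.19. RRM1, the large reductase subunit, lay between 12.3 FPKM in siFOXM1 and 47.9 in siBRCA2, against 64.4 in the control, and its median log2 difference was -1.18. DUT, the enzyme that removes dUTP, had another order of libraries. It was lowest in siCTCF at 10.8 FPKM, followed by 13.2 in siFOXM1 and 14.4 in siPCAT1, and was at 20.4 in siFOXA1, against 29.2 in the control. Only 2 of its 12 log2 differences were -1 or less, and that in siPCAT1 was -0.97.

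**Figure D2:**
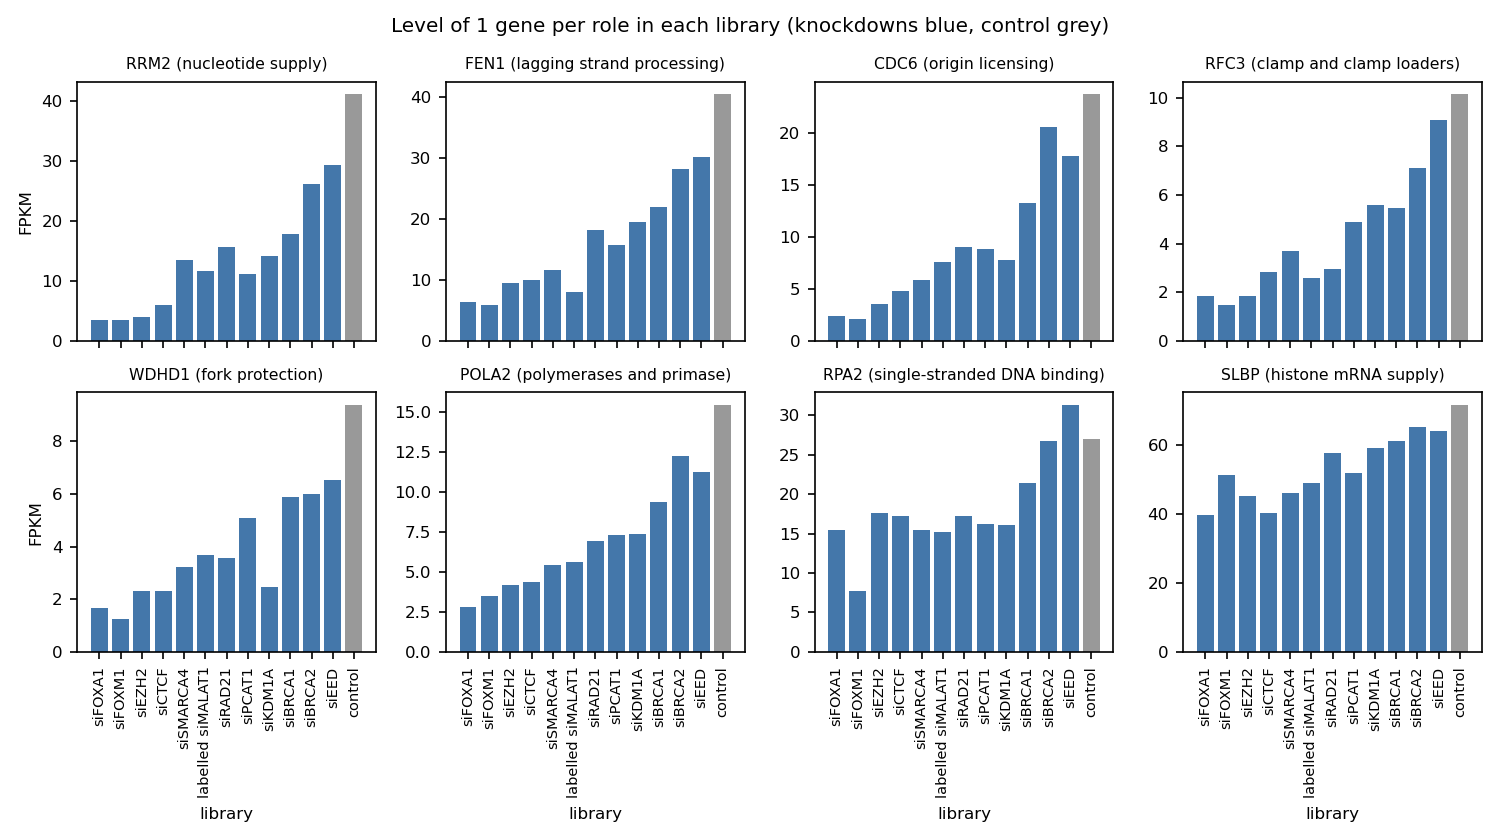
FPKM (vertical axes, starting at 0) of the gene with the lowest median difference in each role, in the 12 knockdown libraries (blue) and the control library (grey). RRM2 is at 3.55 in siFOXA1 and 41.1 in the control, SLBP at 39.8 and 71.7, and RPA2 is the one of these 8 genes with a knockdown, siEED, above the control.

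In the lagging strand group, 24 of 36 values were at least 2-fold lower. FEN1, the flap endonuclease that trims Okazaki fragments, was at 5.96 FPKM in siFOXM1, 6.38 in siFOXA1, 9.49 in siEZH2, 9.94 in siCTCF, 11.6 in siSMARCA4, 8.04 in the library labelled siMALAT1, 18.2 in siRAD21, 15.8 in siPCAT1, 19.6 in siKDM1A, 22.0 in siBRCA1, 28.2 in siBRCA2 and 30.2 in siEED, against 40.5 in the control. The library labelled siMALAT1 was the third lowest, and FEN1 was the lowest of the 36 genes there, with a log2 difference of -2.20. RNASEH2A, the catalytic subunit of the RNase H2 that removes ribonucleotides from DNA, had its lowest level of 3.93 FPKM in siFOXM1 and its highest knockdown level of 25.1 in siEED, against 36.1 in the control. LIG1, which seals the nicks, lay between 1.20 FPKM in siFOXM1 and 7.31 in siEED, against 8.68 in the control.

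Origin licensing genes had 42 of 72 values at least 2-fold lower, and all but 1 of them came from 5 of the 6 members. CDC6, the helicase loading ATPase, was at 2.16 FPKM in siFOXM1, 2.38 in siFOXA1, 3.53 in siEZH2, 4.76 in siCTCF, 5.91 in siSMARCA4, 7.58 in the library labelled siMALAT1, 9.02 in siRAD21, 8.89 in siPCAT1, 7.81 in siKDM1A, 13.3 in siBRCA1, 20.6 in siBRCA2 and 17.8 in siEED, against 23.8 in the control. The lowest levels were in both forkhead knockdowns and the nearest to the control in siBRCA2. DTL, the receptor of the ligase that degrades CDT1, lay between 0.367 FPKM in siFOXM1 and 5.86 in siEED, against 8.21 in the control. ORC1 and ORC6, subunits of the origin recognition complex, had median log2 differences of -1.18 and -1.25 and were at least 2-fold lower in 8 and 7 knockdowns. CDT1, the licensing factor, was at 2.70 FPKM in siFOXA1 and 12.97 in siEED, its lowest and highest knockdown levels, against 15.4 in the control.

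GMNN, the inhibitor of CDT1, stood apart from this group. It was at 35.6 FPKM in siFOXM1, 11.9 in siFOXA1, 39.8 in siEZH2, 53.7 in siCTCF, 45.05 in siSMARCA4, 62.2 in the library labelled siMALAT1, 55.2 in siRAD21, 69.1 in siPCAT1, 65.4 in siKDM1A, 49.4 in siBRCA1, 75.4 in siBRCA2 and 87.7 in siEED, against 70.6 in the control. The siFOXA1 library was at least 2-fold lower than the control (log2 difference -2.47), the other 11 were not, and siBRCA2 and siEED were above it. Its median log2 difference over the knockdowns was -0.37, and -0.18 without siFOXA1, siFOXM1 and siEZH2. After removal of each gene's and each library's median, this value deviated by -1.41 log2 units, the largest deviation of the 432, whose median absolute size was 0.13. With both forkhead knockdowns compared directly, without the control, GMNN had a log2 difference (siFOXA1 minus siFOXM1) of -1.51, the lowest of the 36, where the next was CDT1 with -0.49. It was the 1 gene of the 36 at least 2-fold lower in siFOXA1 than in siFOXM1, against 3.03% of all genes. That count is near the share of all genes. The ratio of GMNN to CDT1 levels was 4.41 in siFOXA1, against 4.58 in the control, and between 6.11 in siBRCA1 and 10.4 in siKDM1A in the other 11 knockdowns.

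**Figure D3:**
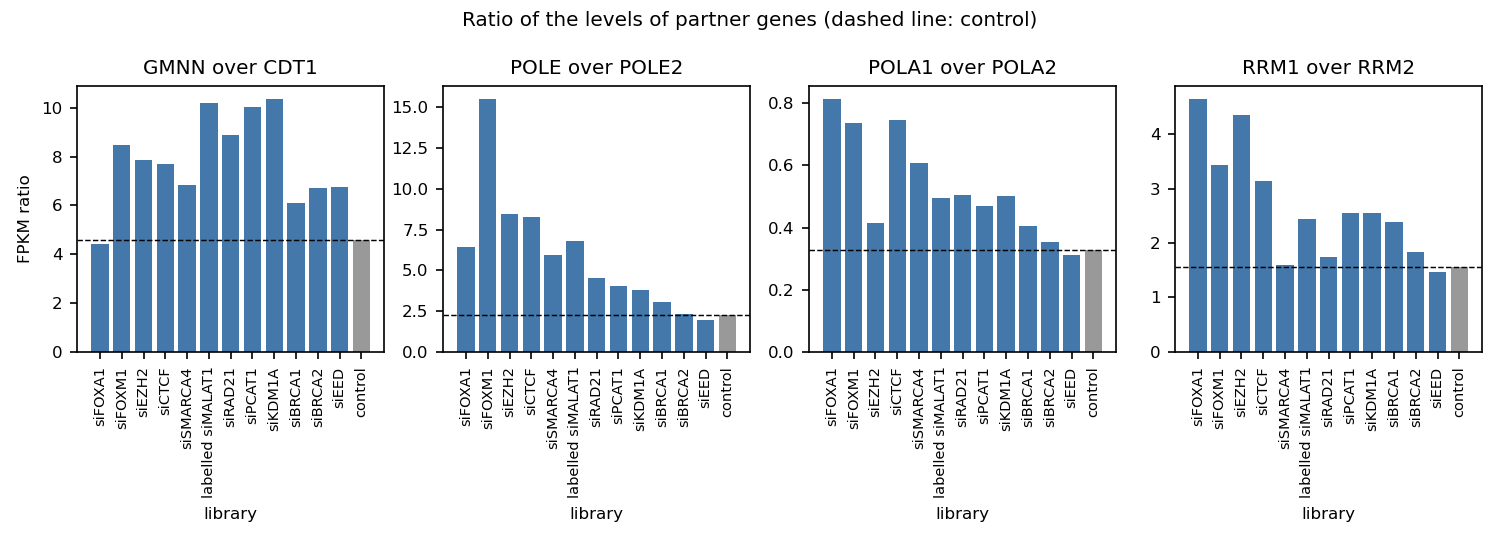
Ratio of FPKM of partner genes (vertical axes, starting at 0) in the 12 knockdown libraries (blue) and the control (grey, with a dashed line at its value). GMNN over CDT1 is above the control in every knockdown but siFOXA1, and POLE over POLE2, POLA1 over POLA2 and RRM1 over RRM2 are above it in every knockdown but siEED.

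Polymerase and primase genes split by subunit, with 31 of 96 values at least 2-fold lower. POLA2, the B subunit of polymerase alpha, was at 3.48 FPKM in siFOXM1, 2.82 in siFOXA1, 4.20 in siEZH2, 4.35 in siCTCF, 5.45 in siSMARCA4, 5.61 in the library labelled siMALAT1, 6.91 in siRAD21, 7.29 in siPCAT1, 7.36 in siKDM1A, 9.39 in siBRCA1, 12.2 in siBRCA2 and 11.2 in siEED, against 15.4 in the control. POLA1, the catalytic subunit of the same polymerase, ranged from 1.75 FPKM in siEZH2 to 4.34 in siBRCA2, against 5.04 in the control. It had a log2 difference of -1 or less in siEZH2 alone. The ratio of POLA1 to POLA2 was accordingly 0.815 in siFOXA1, 0.312 in siEED and 0.326 in the control. Polymerase epsilon showed the same split. Its catalytic gene POLE lay between 6.25 FPKM in siFOXA1 and 12.04 in the library labelled siMALAT1, against 12.7 in the control. None of its 12 log2 differences reached -1, and the lowest was -0.92 in siFOXA1. Its second subunit POLE2 lay between 0.480 FPKM in siFOXM1 and 4.83 in siEED, against 5.54 in the control, with 7 values at least 2-fold lower. The ratio of POLE to POLE2 was 15.5 in siFOXM1, 1.98 in siEED and 2.29 in the control. The siFOXM1 ratio rests on the low POLE2 level of 0.480 FPKM in 1 library. The next highest was 8.48 in siEZH2, where POLE2 was at 0.958 FPKM. In polymerase delta the catalytic gene was the lower one: POLD1 and the accessory POLD3 had median log2 differences of -0.85 and -0.53, and their ratio was above the control in 2 of 12 knockdowns. Of the primase genes, the catalytic PRIM1 and the large subunit PRIM2 had medians of -1.01 and -0.79 log2 units, and PRIM2 was the single gene of the 36 lowest in the library labelled siMALAT1. PRIM1 lay between 2.33 FPKM in siFOXM1 and 12.99 in siEED, against 11.96 in the control.

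Clamp and clamp loader genes were more uniform, and 41 of their 72 values were at least 2-fold lower. RFC3, a small subunit of the clamp loader, was at 1.47 FPKM in siFOXM1, 1.85 in siFOXA1, 1.84 in siEZH2, 2.82 in siCTCF, 3.71 in siSMARCA4, 2.60 in the library labelled siMALAT1, 2.97 in siRAD21, 4.88 in siPCAT1, 5.59 in siKDM1A, 5.45 in siBRCA1, 7.13 in siBRCA2 and 9.07 in siEED, against 10.2 in the control. It was the lowest of the 36 genes in siRAD21, with a log2 difference of -1.49. RFC2, RFC4 and RFC5, the other small subunits, had median log2 differences of -0.83, -0.95 and -1.16, and RFC4 was lowest in siEZH2. PCNA, the sliding clamp and the most abundant of the 36 transcripts in the control, was at 21.8 FPKM in siFOXM1, 25.2 in siFOXA1, 32.2 in siEZH2, 50.1 in siCTCF, 44.8 in siSMARCA4, 44.6 in the library labelled siMALAT1, 68.8 in siRAD21, 37.7 in siPCAT1, 62.3 in siKDM1A, 78.8 in siBRCA1, 88.8 in siBRCA2 and 96.1 in siEED, against 107 in the control. The siPCAT1 library was lower in PCNA than siCTCF and siSMARCA4, the reverse of the order of the medians. DSCC1, a subunit of the alternative loader that serves sister chromatid cohesion, lay between 0.939 FPKM in siFOXM1 and 8.34 in siEED, against 8.45 in the control.

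Fork protection genes had 19 of 48 values at least 2-fold lower. WDHD1, which links the helicase to polymerase alpha, was at 1.26 FPKM in siFOXM1, 1.67 in siFOXA1, 2.30 in siEZH2, 2.33 in siCTCF, 3.21 in siSMARCA4, 3.69 in the library labelled siMALAT1, 3.56 in siRAD21, 5.09 in siPCAT1, 2.48 in siKDM1A, 5.89 in siBRCA1, 5.98 in siBRCA2 and 6.55 in siEED, against 9.39 in the control. It was the lowest of the 36 genes in siKDM1A, with a log2 difference of -1.58. CLSPN, the mediator of the replication checkpoint, and TIMELESS, a fork protection subunit, each had log2 differences of -1 or less in 5 knockdowns. TIPIN, the partner of TIMELESS, had one in siFOXA1 alone, with a lowest level of 7.22 FPKM, against 17.9 in the control.

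By the median of a role's genes, single-stranded DNA binding and histone mRNA supply lay nearest to the control, although GMNN and POLE were nearer as single genes. Of 36 values of the RPA subunits, 5 were at least 2-fold lower, and 3 of these were in siFOXM1. RPA2, the middle subunit, was at 7.70 FPKM in siFOXM1, 15.4 in siFOXA1, 17.6 in siEZH2, 17.2 in siCTCF, 15.5 in siSMARCA4, 15.3 in the library labelled siMALAT1, 17.2 in siRAD21, 16.2 in siPCAT1, 16.1 in siKDM1A, 21.4 in siBRCA1, 26.7 in siBRCA2 and 31.3 in siEED, against 27.0 in the control. Its siFOXM1 value lay well below the other 11 knockdowns, which reached down to 15.3. The large subunit RPA1 lay between 20.0 and 35.9 FPKM in the knockdowns, against 42.2 in the control, and the small subunit RPA3 between 4.18 and 12.8, against 11.2. SLBP, which binds the stem-loop of replication-dependent histone mRNAs, was at 51.5 FPKM in siFOXM1, 39.8 in siFOXA1, 45.2 in siEZH2, 40.2 in siCTCF, 46.3 in siSMARCA4, 49.0 in the library labelled siMALAT1, 57.7 in siRAD21, 52.0 in siPCAT1, 59.3 in siKDM1A, 61.1 in siBRCA1, 65.3 in siBRCA2 and 64.3 in siEED, against 71.7 in the control. It and POLE were the 2 genes of the 36 with no log2 difference of -1 or less, and 34 had 1 or more, against 9.14% of all genes. At the other end, 20 of the 36 were at least 2-fold lower in 6 or more knockdowns, against 1.52% of all genes.

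Which library was lowest differed between genes. siFOXM1 was the lowest of the 13 libraries for 19 of the 36 genes, against 11.3% of all genes, and siFOXA1 for 12, against 14.4%. For the remaining 5 it was siEZH2 (POLA1 and RFC4, against 6.31% of all genes), siCTCF (POLD3 and DUT, against 6.68%) or the library labelled siMALAT1 (PRIM2, against 7.65%). Compared directly, siFOXA1 was lower than siFOXM1 for 13 genes and higher for 23, with a median log2 difference (siFOXA1 minus siFOXM1) of 0.18 and the highest value, 0.92, for RPA2. None of the 36 had a log2 difference of 1 or more in this comparison, against 2.57% of all genes. Knockdowns of both PRC2 subunits were also compared: all 36 genes were lower in siEZH2 than in siEED, 28 of them at least 2-fold, against 2.81% of all genes, and the median log2 difference (siEZH2 minus siEED) was -1.29. None was at least 2-fold higher, against 1.05% of all genes. EED itself was at 4.13 FPKM in its own library, against 8.94 in the control, and EZH2 at 2.20 in its own, against 16.4, so the targets were not lowered to the same extent. Between siCTCF and siRAD21, 32 of the 36 genes were lower in siCTCF, 4 of them at least 2-fold, against 1.79% of all genes, and none was at least 2-fold higher, against 1.84%, with DUT lowest at 10.8 FPKM in siCTCF, against 28.9 in siRAD21.

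The other cell division genes gave larger differences than the 36 genes in most libraries. The median log2 difference of 12 replicative helicase genes was -2.54 in siFOXA1, where that of the 36 genes was -1.81 and that of 24 mitosis genes -3.22. In siCTCF it was -1.50, where the 36 genes had -1.34 and the mitosis genes -2.43. In siEED these medians were -0.27 in each list. In siBRCA1 the mitosis genes had a median of -0.85 and the helicase genes one of -0.91, where the 36 genes had -0.62. No test of these differences between lists was possible with 1 library per group. The lowest helicase genes by their median over the knockdowns were the helicase activators GINS2 and CDC45, both with -1.76 log2 units, and the highest was MCM7, a subunit of the helicase ring, with -0.95. Among mitosis genes BIRC5 (survivin) and CENPF (a kinetochore protein) were lowest, at -1.64 and -1.62, and the phosphatase CDC25C was highest, at -1.12.

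**Figure D4:**
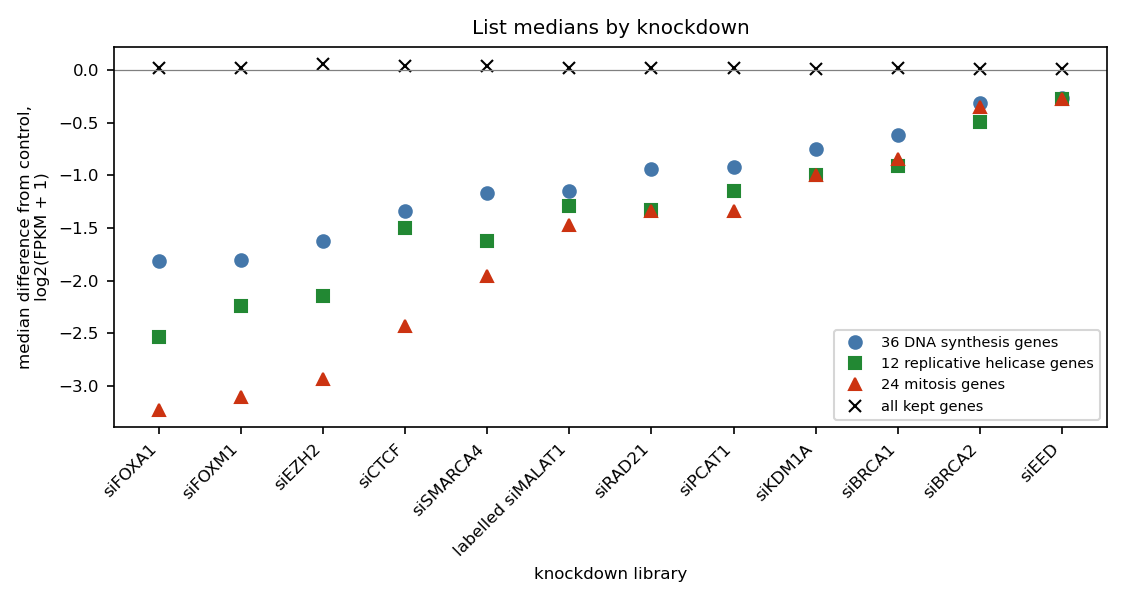
Median log2 difference from the control (vertical axis, log2(FPKM + 1)) of 36 DNA synthesis genes, 12 replicative helicase genes, 24 mitosis genes and all kept genes in each knockdown library (horizontal axis). In siFOXA1 the medians are -1.81, -2.54 and -3.22 for the 3 lists, in siEED they are -0.27 in each, and all kept genes lie between 0.0057 and 0.054.

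Other replication genes lay closer to the control than the 36. Both lists were chosen with earlier results of these data known, so this contrast may follow from how the genes were divided. Of 48 further genes listed for origin firing, polymerase and loader subunits, checkpoint and nucleotide supply, 47 were measured, and their median log2 difference ran from -0.53 in siFOXA1 to -0.072 in siEED. In siFOXM1 16 of the 47 were at least 2-fold lower and 0 higher, in siFOXA1 15 lower and 1 higher, and in siEZH2 and siCTCF 12 lower each. Of all genes, 3.6% were that much lower in siFOXM1, 4.22% in siFOXA1, 3.09% in siEZH2 and 2.85% in siCTCF. The share that much higher was 2.59% in siFOXM1 and 3.52% in siFOXA1. Over all 12 knockdowns, 2.04% of the values of all genes were at least 2-fold lower, the share to set beside the counts that follow. Origin firing genes had 21 of 108 values at least 2-fold lower, with TICRR, a firing factor, and DBF4, the activator of the CDC7 kinase, at medians of -1.25 and -0.86 log2 units and ORC5, another origin recognition subunit, at 0.048. Among polymerase and loader subunits 12 of 120 values were, with CHTF18, the alternative loader that works with DSCC1, at -1.20, ATAD5, which unloads PCNA, at -0.87 and the small polymerase delta subunit POLD4 at 0.25. For lagging strand and checkpoint genes the count was 28 of 156, with the exonuclease EXO1 at -1.49, TONSL at -0.91 and the checkpoint clamp gene RAD9A at 0.023. Nucleotide supply genes had 19 of 180 lower, with the thymidylate kinase DTYMK at -1.02 log2 units and the nucleoside diphosphate kinase NME1 at 0.022. RRM2B, the p53-inducible alternative to RRM2, was at 43.1 FPKM in siFOXA1 and 10.5 in siFOXM1, its highest and lowest levels, against 20.3 in the control. That pair of values was picked after they were seen.

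Regulators of the G1/S step are given beside these results, and their part in them was not tested. E2F1, a transcription factor known to activate many of these genes, was at 1.54 FPKM in siFOXM1, 1.72 in siFOXA1, 1.38 in siEZH2, 2.18 in siCTCF, 3.38 in siSMARCA4, 3.76 in the library labelled siMALAT1, 3.79 in siRAD21, 3.61 in siPCAT1, 4.40 in siKDM1A, 6.36 in siBRCA1, 8.71 in siBRCA2 and 7.81 in siEED, against 10.1 in the control. Its levels were thus lowest in the same 4 libraries in which the 36 genes had their lowest medians. MKI67, a mark of dividing cells, ranged from 0.536 FPKM in siFOXA1 to 8.16 in siBRCA2, against 10.5 in the control. CDKN1A, the p53-induced CDK inhibitor, was at 440.0 FPKM in siCTCF, 130.5 in siSMARCA4, 82.6 in siFOXA1, 77.6 in siFOXM1 and 47.5 in siEZH2, against 22.5 in the control. It was also at 100.5 in siKDM1A, 95.4 in siBRCA1, 88.4 in siRAD21, 79.7 in siBRCA2, 50.4 in siEED, 36.1 in the library labelled siMALAT1 and 25.0 in siPCAT1. With 79.7 FPKM of CDKN1A, siBRCA2 had 34 of the 36 genes below the control and none 2-fold lower, against 0.76% of all genes. BRCA2 itself was only the 9th lowest of 13 there. With 440.0 FPKM of CDKN1A, siCTCF had 26 of the 36 at least 2-fold lower, against 2.85% of all genes. Whether CDKN1A bears on these genes was not tested. Of 16 E2F, cyclin and CDK regulator genes, MYBL2 and CCNA2 had the lowest medians, -1.93 and -1.55 log2 units, CDKN1A the highest, 1.81, and E2F3 and CCNE1 lay at 0.050 and -0.099.

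**Figure D5:**
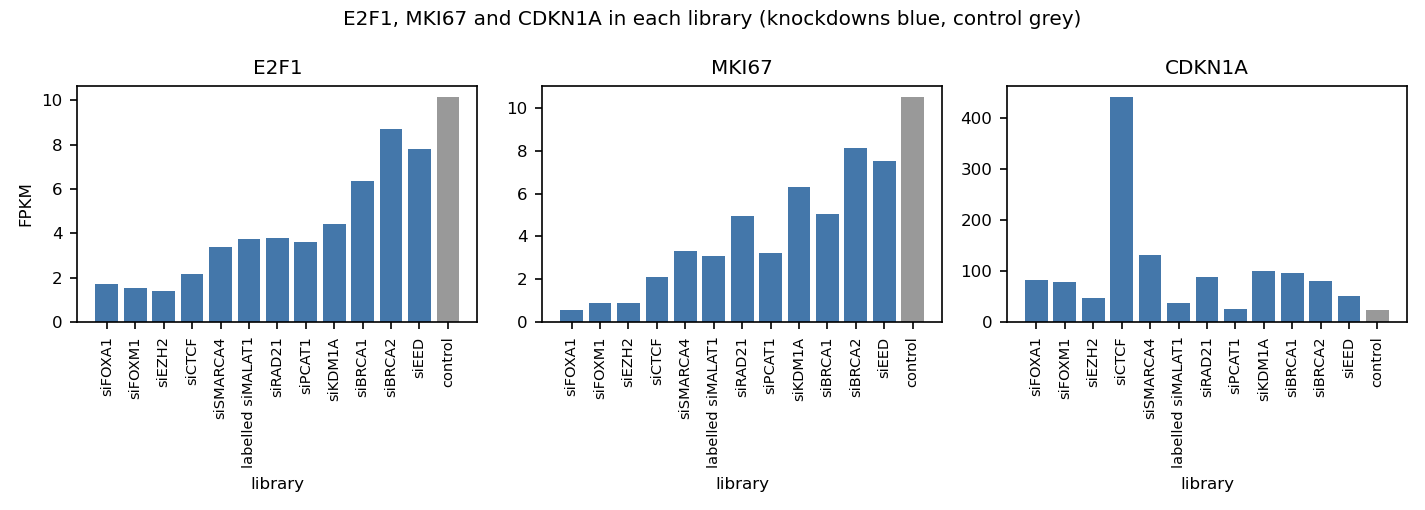
FPKM (vertical axes, starting at 0) of E2F1, MKI67 and CDKN1A in the 12 knockdown libraries (blue, in the order of the 36-gene medians) and the control (grey). E2F1 and MKI67 are highest in the control at 10.1 and 10.5, and CDKN1A reaches 440.0 in siCTCF, against 22.5 in the control.

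For 20 of the 36 genes, reads may be shared with other annotated genes. In GENCODE release 29, 8 have pseudogenes that carry their name (PCNA, RFC3, RFC5, FEN1, RRM2, TYMS, RPA2 and DUT, the last with 8), 11 overlap an exon on the opposite strand, such as TYMS with ENOSF1 and RPA1 with SMYD4, and 8 one on the same strand. The sources used here do not say whether the authors' estimates used strand, so the levels of these genes are uncertain to that extent.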

How the data were processed

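The authors deposited 1 file per library with log2 FPKM values for 22613 gene entries. RNA was extracted with the RNeasy kit and libraries were made with the Illumina TruSeq RNA kit, per the labels' protocols. Reads were aligned with TopHat and levels estimated with Cufflinks on hg19, per the submitters' processing notes, which give no versions. The lowest value is the log2 of 0.1, so the deposited values were read as log2(FPKM + 0.1). The sorted values of the 13 libraries differed by at most 0.0562, so the libraries hold nearly a common distribution, as after quantile normalization, a step no label records. No counts were used and depth is unknown. The offset was subtracted, values below 1e-09 were set to 0, and differences are knockdown minus control on log2(FPKM + 1), which understates changes at low FPKM. Genes with a mean of at least 0.5 FPKM were kept, without 771 small RNA entries. Each group has 1 library, so no test was run, and differences of 1 or more were counted. The counting was run on copies of the control values with known changes put in and no noise, which checks the code only. Levels in every library are given for the member with the lowest median in each role and for GMNN, TK1, TYMS and PCNA. These were picked from the members with a knockdown at least 1 log2 unit from the median of the other 11. Other members met that rule too, among them RNASEH2A, DTL, LIG1, RRM1 and DSCC1, and are given by range. Partner ratios, direct comparisons of knockdowns, E2F1, MKI67 and CDKN1A levels, and E2F3 and CCNE1 were picked after the values were seen. Of other lists, the 2 lowest genes and the highest are named, except 1 gene that is not reported here. The members and lists were chosen with earlier results of these data known. Python 3.11.15, pandas 2.3.3 and numpy 2.4.6 were used. hg19 sequence was not used, and coordinates are GRCh38.p14.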

Additional observations from a re-analysis of the deposited data

How the results depend on the processing

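No paired analysis was possible because each group has 1 library. The first alternative sets each knockdown against the others, which mostly lay below the control. It therefore shows only how the knockdowns stand to each other. With the other 11 knockdowns (their median) replacing the control library, the median log2 difference of the 36 genes was -0.88 in siFOXM1, -0.75 in siFOXA1, -0.63 in siEZH2, -0.46 in siCTCF, -0.17 in siSMARCA4, -0.14 in the library labelled siMALAT1, 0.14 in siRAD21, 0.17 in siPCAT1, 0.25 in siKDM1A, 0.52 in siBRCA1, 0.76 in siBRCA2 and 0.87 in siEED. The count at least 2-fold lower was then 14 in siFOXM1, 10 in siFOXA1, 4 in siEZH2, 1 in siCTCF and 0 in siSMARCA4, the library labelled siMALAT1, siRAD21, siPCAT1, siKDM1A and siBRCA1, where between 0.203% and 2.49% of all genes were that much lower, and 9 in siBRCA2 and 11 in siEED were at least 2-fold higher, against 1.03% and 1.01% of all genes. At 1.5-fold, the count lower than the control was 28 in siRAD21, siPCAT1 and siKDM1A (6.17%, 4.23% and 6.72% of all genes), 21 in siBRCA1 (5.35%) and 3 in siBRCA2 (4.04%). With an offset of 0.1 the count at least 2-fold lower was 20 in siPCAT1, against 13. Over all 432 values 229 were at least 2-fold lower, against 199, with none lost. The share of all genes was not computed at this offset. DTL in siFOXM1 was then at -4.15 and POLE2 at -3.28, against -2.75 and -2.14. Centring added 7 calls, and quantile normalization could move nothing, since the deposited values already share nearly one distribution. Leaving out siFOXA1, siFOXM1 and siEZH2 gave GMNN a median of -0.18, against -0.37 with all 12, and moved that of the other 35 genes by no more than 1.5 times. Keeping small RNA entries, an alternative chosen after seeing the data, put the share of all genes at least 2-fold lower at 1.52% in siBRCA1, 1.36% in siBRCA2 and 1.503% in siEED. With 1 library per group and unknown depth, neither replicate nor counting error can be given.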
